A study of Mus musculus with 2 samples.

Results

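The 35 genes described here are 19 genes of glycolysis and 16 targets of the hypoxia response, chosen by symbol from the 18131 genes counted in single cells that were dissected at embryonic day 9.5 (E9.5) from the mouse cardiac neural crest region. All 35 had a column in both tables, and 33 had at least 200 unique molecular identifiers (UMIs, each 1 captured transcript) over both libraries. The exceptions were Adm (68 UMIs in WT and 42 in KO) and Ndrg1 (84 in each).

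The dissected region reaches from the otic placode to the anterior somites. Embryos of the KO library were Prdm6f/f, those of the WT library Prdm6+/+, and all were C57BL/6 mice that also carried Wnt1-Cre2 and ZsGreen1. Wnt1-Cre2 makes Cre recombinase in the Wnt1 lineage, in which Cre switches on the ZsGreen1 reporter. Deletion of Prdm6, which encodes a chromatin regulator, was thus directed to that lineage, which includes the neural crest and the cells it contributes to the heart. Cells of the region outside it, such as blood, are not targeted by this Cre. The cells were not sorted. The tables do not map cells to embryos, so each genotype is represented by 1 library. Differences between WT and KO therefore have no replicate check, and no test was made. The authors reported batch effects between conditions and corrected for them in their graph of neighbouring cells. The counts used here carry no such correction, so genotype and batch cannot be told apart.

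The WT library held 11958 cells and 20781384 UMIs (median 1597 per cell), and the KO library 9765 cells and 18936857 UMIs (median 1703). Barcodes shared by both libraries numbered 26. Prdm6 itself had 104 UMIs (5.00 CPM) in WT and 59 (3.12 CPM) in KO, with 1 and 2 UMIs in the migrating neural crest class described below, too few to check the deletion there. A 3′ UMI count need not report on a floxed exon. Levels (CPM) are UMIs per 1000000 UMIs, with a 95% exact Poisson interval, and KO over WT is a log2 ratio of CPM with a 95% exact interval. The intervals cover counting error only and leave out the spread between embryos. In 3′ droplet data a transcript gives 1 UMI whatever its length, so levels of different genes were compared without length scaling. A lower level in a whole library can mean fewer cells of a type or less RNA per cell, and the pooled values cannot tell these apart.

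Glycolysis splits glucose into pyruvate. Glucose enters through facilitative transporters, is trapped by hexokinase, committed by phosphofructokinase, and cleaved by aldolase, and the later steps of the pathway return ATP and NADH. Embryos of this age rely strongly on glycolysis in a low-oxygen uterus, and lactate dehydrogenase regenerates NAD+ while monocarboxylate transporters export lactate. Hypoxia-inducible factor (HIF) is a dimer of an oxygen-labile alpha subunit and ARNT. Prolyl hydroxylases mark the alpha subunit for destruction by the VHL ligase when oxygen is present. Without oxygen the dimer binds a core motif, ACGTG, and switches on many glycolytic genes and genes of mitophagy, vessel growth and collagen modification.

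The promoters of the members were examined for that motif because many genes of both lists are known HIF targets. The shares below therefore describe the lists as chosen. RefSeq (GRCm38.p6) promoters, 250 bases before to 50 after each annotated start, were found for 32 of the 35. Slc2a3, Bnip3l and Ndrg1 had no entry. ACGTG, on either strand, was present in at least 1 promoter of 22 of the 32 (68.8%), of which 12 were among 18 glycolysis and 10 among 14 hypoxia response members. It was found in 21.8% of all 27025 genes with a promoter, and in 30.4% of the 8247 with at least 200 UMIs here. Counted by promoter window, since genes with more starts have more chances, the shares were 51.0% of 49 member windows and 19.6% of 32851 windows in all. The 3 members below are shown, over the 150 bases before the most upstream RefSeq start, because Ldha held the most matches, Hk2 had the highest KO over WT ratio and Eno1 the lowest among the members with at least 200 UMIs. Capitals mark ACGTG or its reverse complement CACGT, and CACGTG, read on both strands, counts as 2 overlapping matches. GENCODE vM21 puts no exon in these stretches.
Ldha (lactate dehydrogenase A, 5 matches, chr7:46845654-46845803, plus strand): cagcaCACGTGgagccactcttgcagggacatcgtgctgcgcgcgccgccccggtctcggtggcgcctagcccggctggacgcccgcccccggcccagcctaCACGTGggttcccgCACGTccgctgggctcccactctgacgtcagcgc
Hk2 (hexokinase 2, 1 match, chr6:82774455-82774604, minus strand): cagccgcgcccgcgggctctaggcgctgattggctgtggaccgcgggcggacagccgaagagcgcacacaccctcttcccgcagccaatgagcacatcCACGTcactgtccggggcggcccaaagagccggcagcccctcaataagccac
Eno1 (enolase 1, 0 matches, chr4:150236558-150236707, plus strand): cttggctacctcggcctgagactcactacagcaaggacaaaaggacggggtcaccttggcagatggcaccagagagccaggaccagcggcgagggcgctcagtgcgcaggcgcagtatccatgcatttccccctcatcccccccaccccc
A further match lay 226 bases before the Hk2 start, and the other 2 RefSeq starts of Eno1 had none either. A match in these letters is a description and does not show that the factor binds.

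Cells were assigned to 12 classes by markers of which at least 3 stood above 3 times their mean level in the cell. Of the WT cells 4071 (34.0%) entered a class and of the KO cells 2968 (30.4%), with 872 and 558 in cardiac muscle, 807 and 718 in neural progenitors, and 34 and 43 in arch mesenchyme, the smallest class. Inside each class 8 to 10 of its markers stood at least 2-fold above the other gated cells in each library, and 1 arch mesenchyme marker was at 0 in KO. The gate used these markers, so this describes the classes and is no independent check of them. Erythroid cells made 4.23% of WT cells and 2.03% of KO cells, and the globin Hbb-y had 5234 CPM over all WT cells and 2754 CPM over all KO cells, and 1731 and 822 CPM within cardiac muscle. The part of this red cell RNA in the results was not tested, and without erythroid cells the glycolysis sum had a log2 ratio of −0.17 (KO over WT).

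Glycolysis transcripts were most abundant in cardiac muscle. In WT the 19 genes summed to 19670 CPM there (19469 to 19872), and in KO to 15983 CPM (15772 to 16197). Surface ectoderm came next with 16369 CPM in WT and 15363 CPM in KO, and in KO its interval overlapped that of cardiac muscle. For the sum of all members, it was the highest class in KO without the 3 most abundant members. The same held where any UMI of a marker counted. At the other end, endothelial cells had 11385 and 10093 CPM, and erythroid cells had 9572 (9389 to 9758) and 8375 (8126 to 8631) CPM. Against all other gated cells the log2 ratio was 0.62 in WT and 0.46 in KO for cardiac muscle, and −0.65 and −0.60 for erythroid cells. In between, pharyngeal endoderm, neural progenitors, arch mesenchyme, mesoderm, migrating neural crest and dorsal neural tube followed each other with overlapping intervals in both libraries. The migrating neural crest, a class of the Wnt1 lineage, had 13107 CPM in WT and 11659 CPM in KO.

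The hypoxia response genes, a smaller pool, were also highest in cardiac muscle in both libraries, with log2 ratios of 0.48 in WT and 0.64 in KO over the other gated cells. Cardiac muscle had 1749 CPM in WT (1690 to 1810) and 2074 CPM in KO (1998 to 2152). Erythroid cells were last in WT with 1069 CPM (1009 to 1133), while in KO somite cells (1179 CPM) and erythroid cells (1189 CPM) could not be separated. The other 10 classes lay between 1152 and 1480.3 CPM in WT, and all neighbours in the order below cardiac muscle had overlapping intervals in both libraries.

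**Figure D1:**
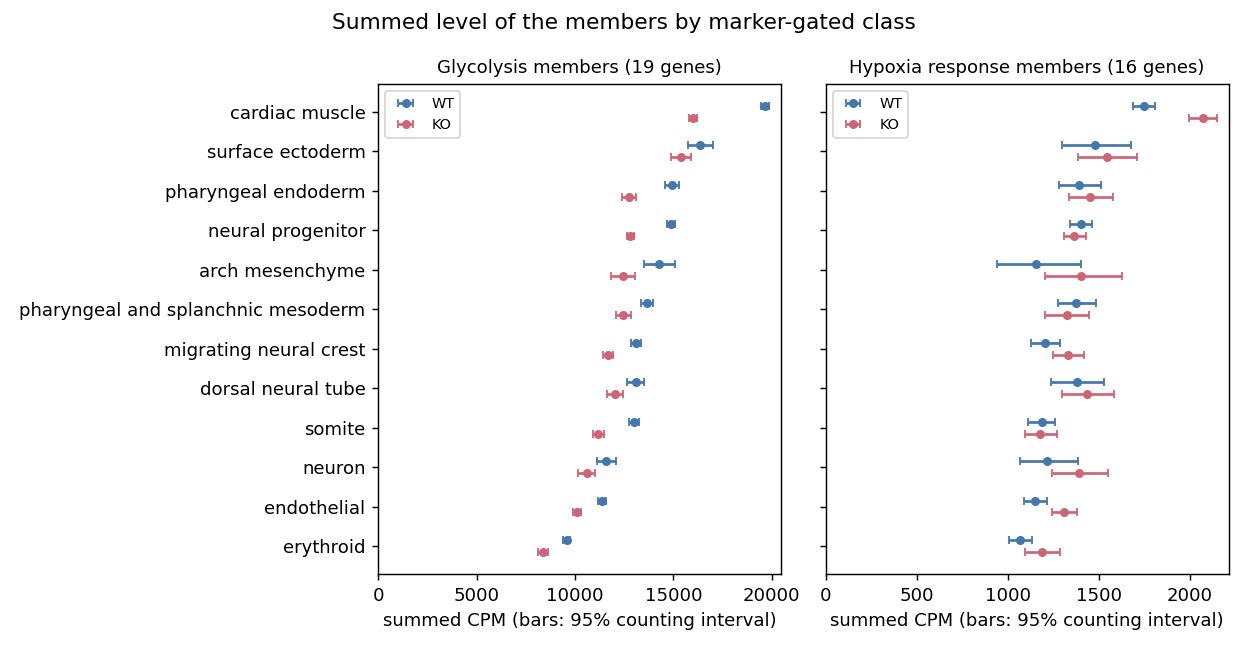
Summed CPM of the 19 glycolysis members (left) and the 16 hypoxia response members (right) in each marker-gated class (rows), with WT in blue and KO in red and 95% Poisson intervals as bars. For glycolysis the KO point lies left of the WT point in all 12 classes, from 15983 against 19670 CPM in cardiac muscle to 8375 against 9572 CPM in erythroid cells, whereas the hypoxia response points of both libraries mostly overlap outside cardiac muscle.

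Single members set cardiac muscle apart more than the sums did. A member is called higher or lower in a class where it was at least 1.5-fold so against the other gated cells in both libraries. In cardiac muscle 10 of 33 members were higher and 0 lower, against 8.19% of 9867 genes higher and 11% lower. They were Slc2a1, Hk1, Pfkm, Pfkp, Aldoa, Ldhb and Slc16a3 of glycolysis, and Bnip3, P4ha2 and Pdk1 of the hypoxia response. Hk1, the hexokinase held at the mitochondrial outer membrane, had 282 CPM in WT cardiac muscle and 279.5 CPM in KO, log2 ratios of 3.06 and 3.21 over other gated cells. Pfkp, the platelet-type phosphofructokinase, had 91.2 and 67.7 CPM (2.87 and 2.67). Aldoa, the muscle-type aldolase, reached 2104 and 1575 CPM (1.14 and 0.93). Slc16a3, which exports lactate from highly glycolytic cells, had 209.7 and 203 CPM. Bnip3, a mitophagy receptor, had 260 and 269 CPM (1.53 and 1.72), and Pdk1, the kinase that closes pyruvate dehydrogenase to pyruvate, 104 and 95.6 CPM (1.00 and 0.80).

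In erythroid cells 16 of 33 members were lower, against 32.7% of all genes there. Hbb-y alone made 57263 CPM of these cells in WT and 59715 CPM in KO. The lower members included Gapdh, Pgk1, Pgam1, Eno1 and Pkm, the later steps of the pathway, with Eno1 at 1139 CPM in WT and 827 CPM in KO. Pfkm was the member that was higher (89.3 and 74.8 CPM, log2 0.62 and 0.75, where 4.02% of genes were called). Of the 7 hypoxia response members lower in erythroid cells, Ddit4, Egln3, P4ha2 and Vldlr had 8 UMIs or fewer there in each library. Endothelial cells had 8 members lower, among them Slc2a3, Hk1, Hk2 and Vegfa, against 11.9% of genes. Their one higher member was Egln3, a HIF prolyl hydroxylase, with 23 UMIs (21.0 CPM) in WT and 21 (19.8 CPM) in KO (8.53% of genes higher).

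**Figure D2:**
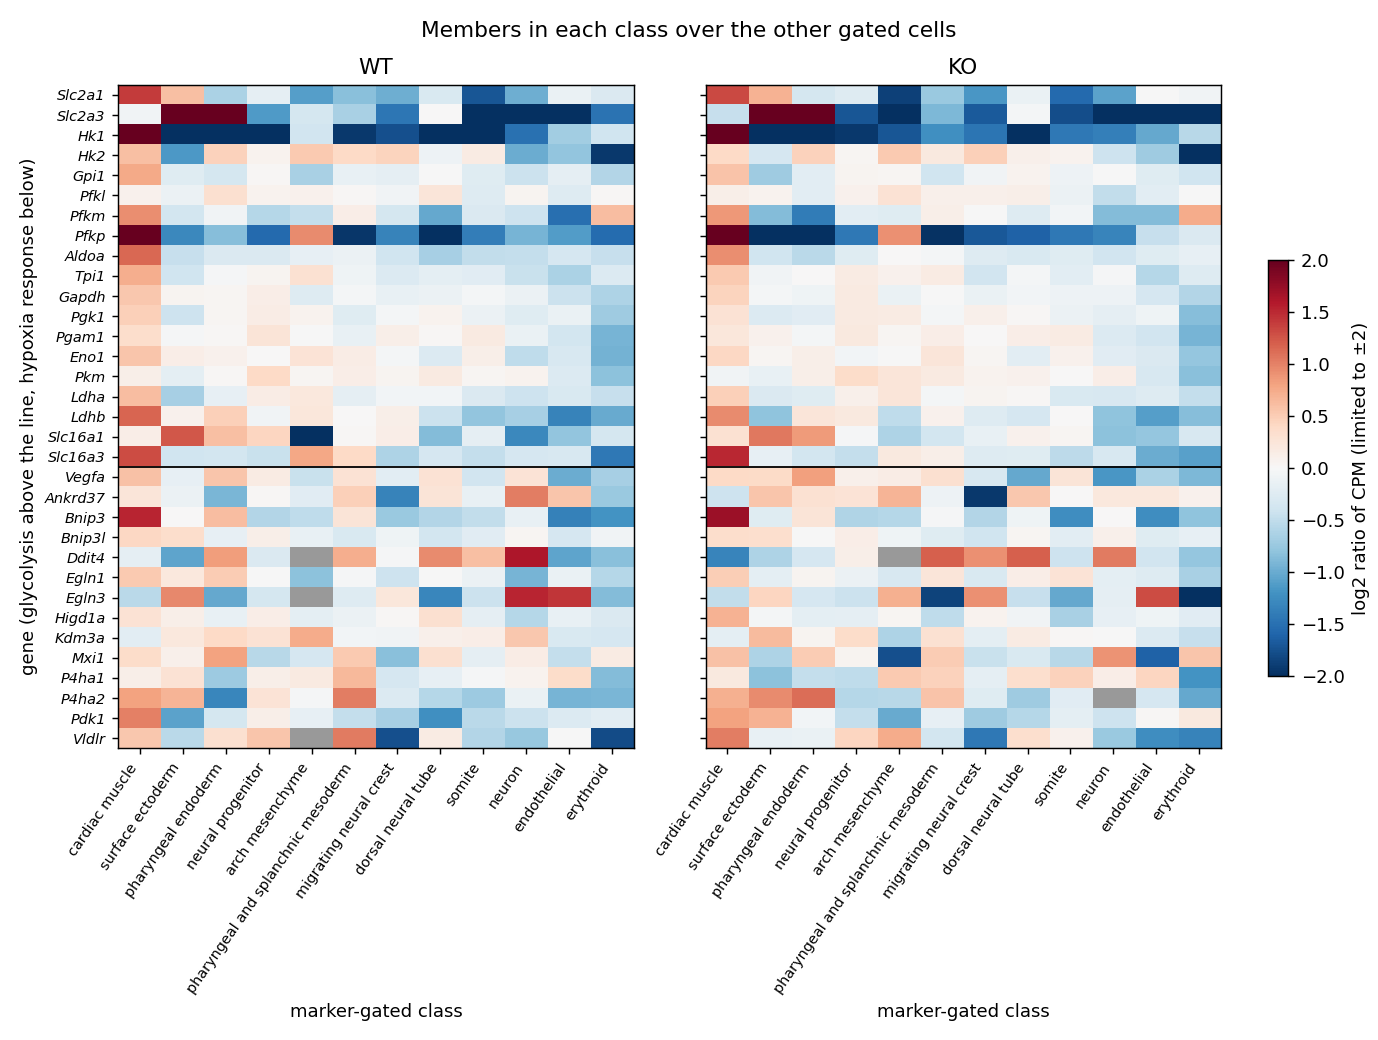
Log2 ratio of CPM of each of the 33 members (rows) in a class over the other gated cells, in WT (left) and KO (right), with red for higher and blue for lower, colours limited to 2 in either direction and grey for no UMI. The cardiac muscle column is red for Hk1 (3.06 and 3.21) and Pfkp (2.87 and 2.67), and the surface ectoderm column for Slc2a3 (4.19 and 4.24), while rows with few UMIs such as Egln3 and Ddit4 are uneven.

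The epithelia had more of the other glucose transporter. SLC2A3 (GLUT3) has a higher affinity for glucose than SLC2A1 (GLUT1), the common transporter of embryonic tissue and blood barriers. Slc2a3 (chromosome 6, 122727809 to 122801640, minus strand) had 3537 CPM in WT surface ectoderm (3256 to 3836) and 4123 CPM in KO (3866 to 4393), log2 4.19 and 4.24 over the other gated cells. In pharyngeal endoderm it had 1220 and 1474 CPM (2.55 and 2.40). Neurons had 62.7 and 47.5 CPM, and endothelial cells 61.2 and 78.4 CPM. Slc2a1 (chromosome 4, 119108711 to 119137983, plus strand) accordingly gave 16.8% of the UMIs of both transporters in WT surface ectoderm and 12.4% in KO, and 20.5% and 16.6% in pharyngeal endoderm. It gave 79.1% and 73.2% in cardiac muscle, 87.8% and 82.4% in endothelial cells and 79.9% and 83.6% in erythroid cells. Surface ectoderm also had more Slc16a1, the lactate and pyruvate carrier, at 146 and 121 CPM (1.25 and 1.05), and so did pharyngeal endoderm at 92.8 and 105 CPM (0.59 and 0.85). Slc2a1 itself was higher in surface ectoderm than in the other gated cells (716 and 582 CPM, 0.60 and 0.69). Higher members made 4 of 33 in surface ectoderm, where 6.07% of genes were called higher, and 2 of 33 in pharyngeal endoderm (5.39%). P4ha2, also higher in surface ectoderm, rested on 3 and 5 UMIs. In the migrating neural crest 7 of 33 members were lower and 0 higher, where 10.4% of genes were lower and 2.3% higher. They were Slc2a1 (254 and 174 CPM, −0.97 and −1.16), Slc2a3, Hk1, Pfkp, Ankrd37, Pdk1 and Vldlr, whereas Hk2 had 175 and 259 CPM (0.44 and 0.47).

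In the other classes few members stood apart. Hk1 and Pfkp, whose comparison cells include cardiac muscle, were lower in neural progenitors, neurons, somite, pharyngeal and splanchnic mesoderm, surface ectoderm and pharyngeal endoderm as well as dorsal neural tube. Neural progenitors had 0 members higher (2.84% of genes) and 3 lower (9.3%), and somite cells 0 higher (3.14%) and 4 lower (9.18%). Neurons had 1 higher (7.02%) and 7 lower (12.3%), among them both glucose transporters. Pharyngeal and splanchnic mesoderm had 1 higher (3.84%) and 4 lower (6.99%), and dorsal neural tube 1 higher (3.87%) and 2 lower (10.1%). The higher member in these 3 classes was Ddit4, on 10 UMIs or fewer in each library. Arch mesenchyme had 1 higher (Pfkp on 5 UMIs in each library, 4.29%) and 3 lower (13.9%), of which Ddit4 had 0 UMIs in both libraries and could not be told apart from the other gated cells at this depth. Surface ectoderm had 3 lower (10.8%) and pharyngeal endoderm 2 (9.12%).

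Hexokinase use differed by class as well. Hk2, the inducible enzyme, gave 72.6% of Hk1 and Hk2 UMIs over all WT cells and 79.2% over all KO cells. In cardiac muscle it gave 39.2% (339 of 864 UMIs) in WT and 46.3% (327 of 707) in KO, and in erythroid cells 36.2% (42 of 116) and 43.8% (21 of 48). Pharyngeal endoderm had 91.6% and 94.3%. Pfkl, the liver-type phosphofructokinase, gave 72.5% and 76.4% of the phosphofructokinase UMIs over all cells and 51.4% and 55.9% in cardiac muscle, where Pfkm and Pfkp made up the rest. Lactate dehydrogenase was Ldha nearly throughout, with Ldhb, the form favoured by oxidative tissues, at 2.98% in WT and 2.48% in KO. Bnip3 gave 28.5% and 25.0% of the Bnip3 and Bnip3l UMIs over all cells, and 45.8% and 44.5% in cardiac muscle.

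**Figure D3:**
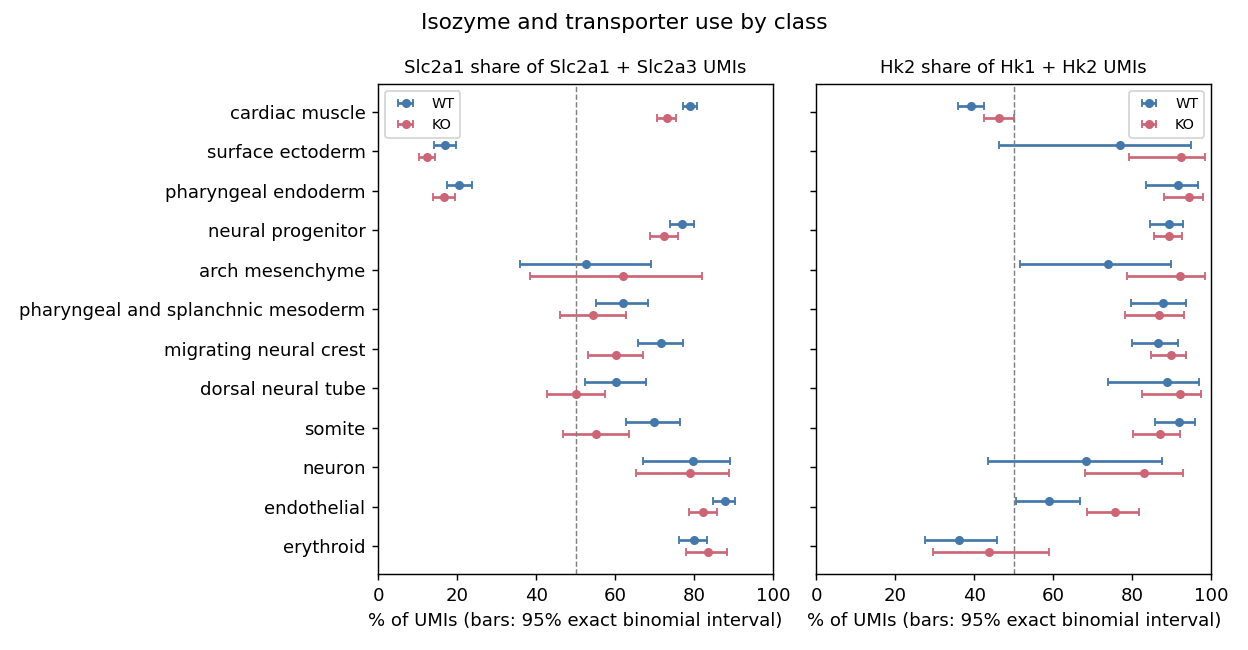
Slc2a1 as a percentage of Slc2a1 and Slc2a3 UMIs (left) and Hk2 as a percentage of Hk1 and Hk2 UMIs (right) by class (rows), WT in blue and KO in red, with 95% exact binomial intervals and a dashed line at equal use. Surface ectoderm (16.8% and 12.4%) and pharyngeal endoderm (20.5% and 16.6%) lie left of the line for Slc2a1, and cardiac muscle (39.2% and 46.3%) and erythroid cells (36.2% and 43.8%) for Hk2.

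To determine how the members differed between genotypes, their levels were compared over all cells. The glycolysis sum was 14199 CPM in WT and 12694 CPM in KO (log2 −0.16, −0.17 to −0.15), and the hypoxia response sum 1348 and 1431 CPM (0.09, 0.06 to 0.11). The median gene of all 10513 with at least 200 UMIs stood at −0.06. Of the 33 members past that minimum, 3 were at least 1.2-fold higher in KO (Slc2a3, Hk2 and Ddit4), where 6.46% of all genes were, and 5 at least 1.2-fold lower (Slc2a1, Pfkm, Pfkp, Eno1 and Ldhb), where 15.9% of all genes were. These shares, 3 and 5 of 33, are near the background, so the counts are no result about the members as a group. Scaled by the median of ratios, 10.9% of all genes were higher and 10.1% lower, and the members numbered 3 and 4. The counting interval lay below 0 for 15 members, and for 29.1% of all genes, and above 0 for 7, and for 16.9% of all genes. With TMM scaling it lay below 0 for 9 members (19.8% of all genes) and above 0 for 9 (24.1%). Gpi1, Hk1, Pfkl, Pkm, Vegfa and Bnip3 then no longer lay below 0, and Pgk1 and Ldha lay above it. Gapdh (−0.23), Aldoa (−0.23) and Pgam1 (−0.22) just missed the 1.2-fold limit (0.263 on the log2 scale), and Ddit4 (0.27) and Ldhb (−0.27) just passed it.

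**Figure D4:**
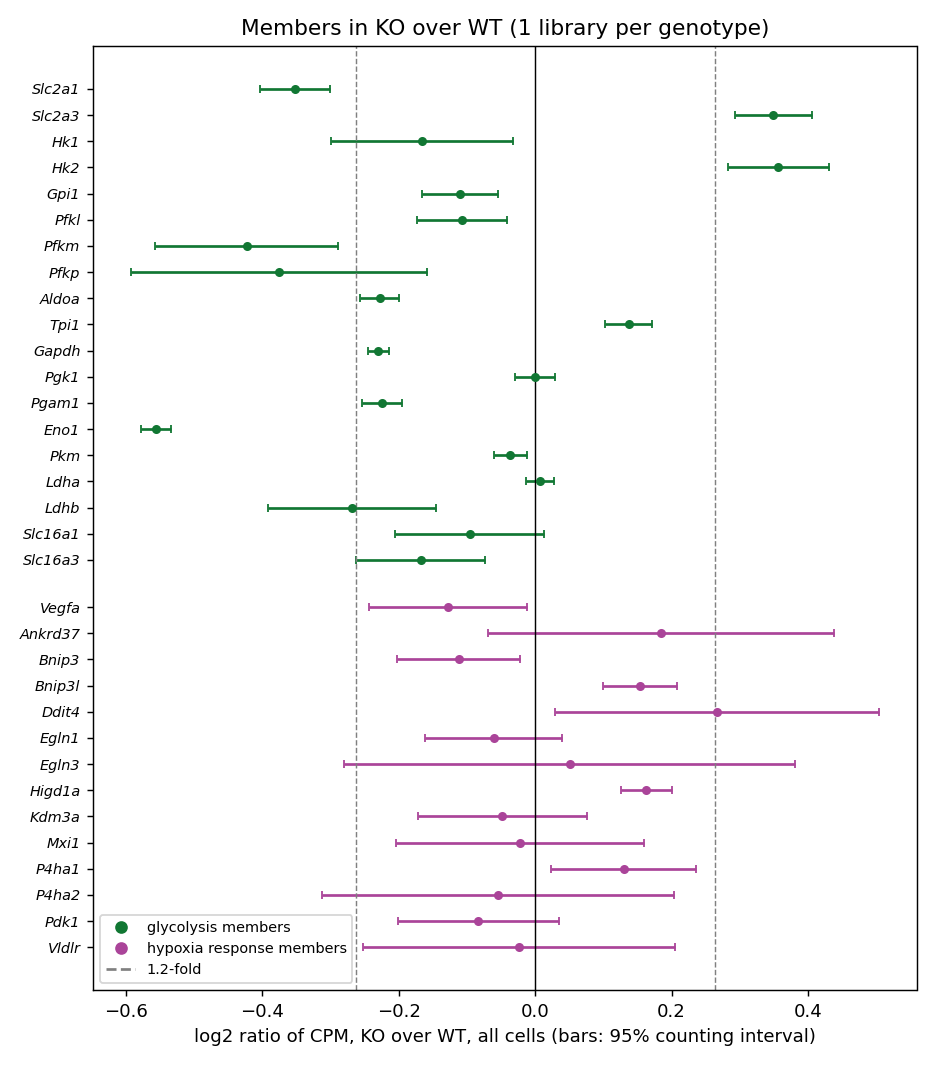
Log2 ratio of CPM, KO over WT, over all cells for the 33 members with at least 200 UMIs (rows), glycolysis in green and hypoxia response in purple, with 95% counting intervals as bars and dashed lines at 1.2-fold. Eno1 (−0.56) lies farthest to the left, Slc2a3 (0.35) and Hk2 (0.36) farthest to the right, and the hypoxia response members other than Ddit4 within 0.2 of 0.

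Enolase carried much of the lower glycolysis sum. Eno1 (chromosome 4, 150236721 to 150248879, plus strand), which turns 2-phosphoglycerate into phosphoenolpyruvate, had 42638 UMIs in WT (2052 CPM, 2032 to 2071) and 26434 in KO (1396 CPM, 1379 to 1413). Its log2 ratio of −0.56 (−0.58 to −0.53) was the 8th lowest among the 744 genes with at least 10000 UMIs, of which 6.18% were 1.2-fold lower and 15.3% 1.2-fold higher. Within classes it was lower in KO in all 12, from −0.32 in neurons to −0.87 in arch mesenchyme, and all 12 intervals lay below 0. Among the 333 genes with at least 100 UMIs in every class, 8.71% were lower in all 12 classes and 19.5% higher in all 12. In cells thinned to 1000 UMIs, a UMI of Eno1 was found in 85.9% of WT cells and 74.5% of KO cells (unthinned 93.2% and 89.4%, at median depths of 1597 and 1703 UMIs). No class here should lack this housekeeping enzyme, so no background share can be set beside it. The near-identical copy Eno1b had 127 and 66 UMIs, and how reads were split between such copies is not given in the sources used here, which also holds for Gapdh, Ldha, Pgk1 and Pkm with their pseudogenes.

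Gapdh, the enzyme that yields NADH, had 3545 CPM in WT and 3023 CPM in KO (−0.23, −0.25 to −0.21) and was likewise lower in all 12 classes, from −0.17 to −0.40, with 11 intervals below 0. It was the most abundant member, with 22.8% of all member UMIs in WT and 21.4% in KO. Without Eno1 and Gapdh the glycolysis log2 ratio was −0.06 (−0.07 to −0.05), and in surface ectoderm it was 0.09 (0.00 to 0.18). The median of all genes was also −0.06, but unlike a sum it gives abundant genes no extra weight. Among genes with at least 10000 UMIs, 6.18% were 1.2-fold lower and 15.3% higher. With Eno1 and Gapdh, the glycolysis sum was lower in KO in all 12 classes, from −0.09 (−0.16 to −0.02) in surface ectoderm to −0.30 (−0.32 to −0.28) in cardiac muscle. The median of all genes within a class lay between −0.05 in erythroid cells and 0.10 in arch mesenchyme. Migrating neural crest had −0.17 (−0.21 to −0.13).

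Upstream of these steps, the transporters and hexokinases went in both directions. Slc2a1 had 353 CPM in WT and 277 CPM in KO (−0.35, −0.40 to −0.30), and it was lower in KO in all 10 classes with at least 100 UMIs, 4 of them with an interval below 0, migrating neural crest included (254 and 174 CPM, −0.55, −0.89 to −0.21). Slc2a3 had 222 and 282 CPM (0.35, 0.29 to 0.41), higher in 8 of 10 classes, 3 of them with an interval above 0, and from −0.54 to 0.67 among the 10. Hk2 (chromosome 6, 82725025 to 82774454, minus strand) had 130.5 and 167 CPM (0.36, 0.28 to 0.43) and was higher in KO in all 7 classes with enough UMIs, 6 of them with an interval above 0. Hk1 had 49.3 and 43.9 CPM (−0.17, −0.30 to −0.03).

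The direction of Slc2a3 moved with the depth of the cells. In cells of 1000 to 2000 UMIs it had 182 CPM in WT and 152 CPM in KO (−0.25, −0.36 to −0.15), and in cells over 2000 UMIs it had 279.8 and 387 CPM (0.47, 0.40 to 0.54). Surface ectoderm cells, the class with the highest Slc2a3 level, made 1.14% of WT and 1.97% of KO cells over 2000 UMIs, and 0.405% and 0.154% of those from 1000 to 2000. Over gated cells only, with KO classes weighted as in WT, the log2 ratio of Slc2a3 was 0.16. In ungated cells it was 0.32 (0.24 to 0.40). Hk2 stood at 0.05 (−0.07 to 0.17) in the cells of 1000 to 2000 UMIs and at 0.44 in the deeper ones, while Slc2a1 was lower in both (−0.57 and −0.29), as was Eno1 (−0.52 and −0.61). Hk1 was lower in both too, at −0.52 (−0.77 to −0.26) and −0.19 (−0.35 to −0.03). Of the 33 members 7 had opposite directions in the 2 depth ranges, which were Slc2a3, Pgk1, Pkm, Ldha, Kdm3a, Mxi1 and P4ha1. The intervals lay on either side of 0 for Slc2a3, for Ldha (0.08 in the shallower and −0.04 in the deeper cells) and for Pkm (0.03 and −0.06). The part of cell composition and depth in these differences, and in those of Pfkp, Pfkm and Ldhb given below, was not tested.

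**Figure D5:**
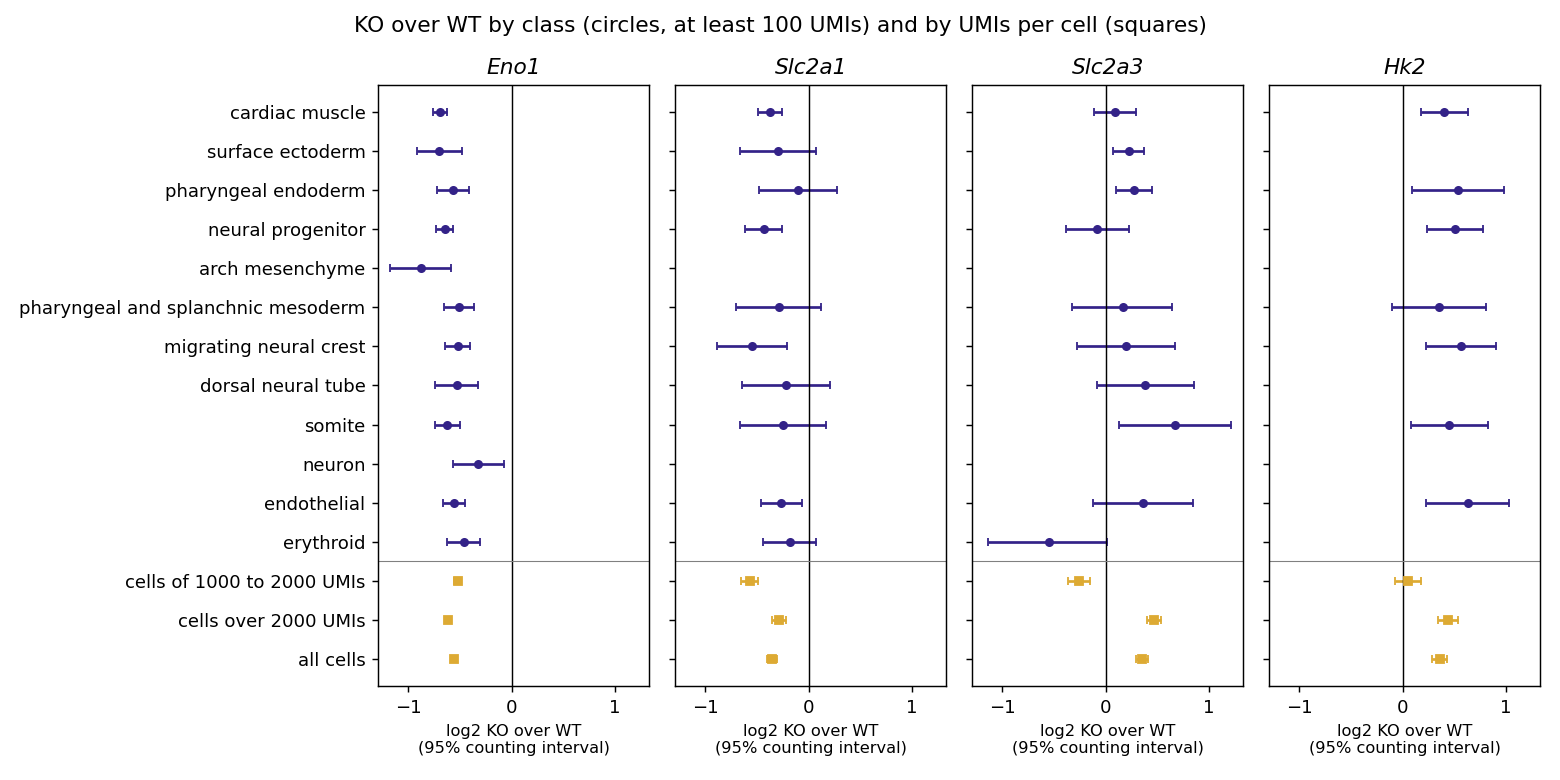
Log2 ratio of CPM, KO over WT, for Eno1, Slc2a1, Slc2a3 and Hk2 in each class with at least 100 UMIs of the gene (circles) and in cells of 1000 to 2000 UMIs, cells over 2000 UMIs and all cells (squares), with 95% counting intervals. Eno1 lies left of 0 in every row, whereas Slc2a3 lies at −0.25 in the shallower and 0.47 in the deeper cells.

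The other steps of the pathway were as follows. Gpi1, which isomerises glucose 6-phosphate, had 273 CPM in WT and 253 CPM in KO (−0.11). Among the phosphofructokinases, Pfkl had 197 and 183 CPM (−0.11), Pfkm 54.1 and 40.4 CPM (−0.42, −0.56 to −0.29) and Pfkp 20.5 and 15.8 CPM (−0.38, −0.59 to −0.16). The intervals of Pfkm and Pfkp also lay below 0 under the other scalings, while that of Pfkl then spanned 0 (−0.05, −0.11 to 0.02 with TMM). In cells of 1000 to 2000 UMIs Pfkp stood at −0.24 (−0.60 to 0.12), and in deeper ones at −0.56. Pfkm stood at −0.68 and −0.32 in these depth ranges. Aldoa had 1071 and 915 CPM, and Pgam1, the mutase before enolase, 1022 and 875 CPM, each lower in 11 of 12 classes. Tpi1, which interconverts the triose phosphates, went the other way, with 662 and 728 CPM (0.14, 0.10 to 0.17), higher in 11 of 12 classes.

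Both ATP-yielding steps and the main lactate dehydrogenase had close levels over all cells. Pgk1, the first of those steps, had 935 CPM in both libraries (−0.00), Pkm 1431 and 1395 CPM (−0.04) and Ldha 1951 and 1959.7 CPM (0.01). Scaling by a trimmed mean or a median of ratios adds 0.06 or 0.07 to each log2 ratio, and under at least 1 of them Pkm, Pgk1, Egln1, Kdm3a, P4ha2, Mxi1 and Vldlr, all near 0, turned from below to above it. Ldhb had 60.0 and 49.8 CPM (−0.27, −0.39 to −0.14). It no longer reached 1.2-fold with either of these scalings (−0.21 and −0.20), and stood at −0.05 (−0.22 to 0.13) in cells of 1000 to 2000 UMIs and at −0.44 in deeper ones. The lactate carriers Slc16a1 and Slc16a3 had 71.5 and 66.9 CPM (−0.10), and 98.2 and 87.4 CPM (−0.17, −0.26 to −0.07). In all, 15 of the 19 glycolysis members lay below 0 and 4 above, with a median of −0.17, where 60.8% of all genes lay below 0.

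Of the 14 hypoxia response members past the minimum 8 lay below 0 and 6 above, with a median of −0.02, and their share below 0 was near that of all genes. Their higher sum in KO came from a pair of abundant genes for mitochondrial proteins. Higd1a, which binds respiratory chain complexes, had 550 CPM in WT and 616 CPM in KO (0.16, 0.13 to 0.20), and Bnip3l, a mitophagy receptor that also clears mitochondria from maturing red cells, 263 and 292 CPM (0.15, 0.10 to 0.21). Without these 2 the log2 ratio of the sum was −0.03 (−0.07 to 0.01). Higd1a was higher in 8 of 12 classes, with 658 and 952 CPM in cardiac muscle (0.53, 0.42 to 0.65) and 608 and 590 CPM in neural progenitors. Bnip3l was higher in 10 of 11 classes.

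Among the genes by which HIF acts on its own pathway and on vessels, Vegfa, the endothelial growth factor, had 64.5 CPM in WT and 59.0 CPM in KO (−0.13, −0.24 to −0.01). Egln1, the main oxygen sensor among the prolyl hydroxylases, had 83.4 and 80.0 CPM (−0.06), and Egln3 7.70 and 7.97 CPM (0.05). Adm, a vasodilator peptide, was under the minimum at 3.27 and 2.22 CPM, and so was Ndrg1 at 4.04 and 4.44 CPM. No member of this kind passed 1.2-fold among those with enough UMIs.

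The metabolic and stress targets spread to both sides. Ddit4, an inhibitor of mTORC1, had 13.6 and 16.3 CPM (0.27, 0.03 to 0.50), on 282 and 309 UMIs. Over gated cells only, with KO classes weighted as in WT, the log2 ratio of Ddit4 was −0.00. In ungated cells it was 0.36 (0.06 to 0.65). Bnip3 had 105 and 97.3 CPM (−0.11), Pdk1 61.6 and 58.2 CPM (−0.08), and Mxi1, an antagonist of MYC, 25.4 and 25.0 CPM (−0.02). Ankrd37 had 12.3 and 14.0 CPM (0.18, −0.07 to 0.44), and Kdm3a, a histone H3K9 demethylase, 55.2 and 53.4 CPM (−0.05). The collagen prolyl hydroxylase subunits P4ha1 and P4ha2 had 69.5 and 76.0 CPM (0.13, 0.02 to 0.24) and 13.0 and 12.5 CPM (−0.05), and the lipoprotein receptor gene Vldlr 338 and 303 UMIs (−0.02). The intervals of Ddit4 and P4ha1 lay above 0, that of Bnip3 below 0, and the others spanned 0. P4ha1 stood at −0.13 (−0.30 to 0.03) in cells of 1000 to 2000 UMIs and at 0.27 (0.12 to 0.42) in deeper ones.

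Genes around the members were examined from further lists, whose counts stand beside 6.46% of all genes higher by 1.2-fold, 15.9% lower and 60.8% below 0. Of 13 regulators of HIF, 12 passed the minimum, with 1 at least 1.2-fold higher in KO and 1 lower. Rbx1, a subunit of the VHL ligase, had 534 and 678 CPM (0.34, 0.31 to 0.38), and Cited2, which competes with HIF for its coactivator, 414 and 323 CPM (−0.36, −0.41 to −0.31). Hif1a had 154 and 170 CPM (0.14, 0.07 to 0.21), was most abundant in cardiac muscle in WT (212 CPM, and 216 CPM in KO), and Arnt had 36.7 and 34.2 CPM (−0.10). Epas1, an alpha subunit known from endothelium, had 114 and 71 UMIs, under the minimum, of which 35 and 25 were in endothelial cells.

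Of 18 measured other glycolytic enzymes 9 passed the minimum, with 0 higher by 1.2-fold (6.46% of all genes) and 3 lower (15.9%). Pklr, the pyruvate kinase of liver and red cells, had 12.2 CPM in WT and 5.76 CPM in KO (−1.08, −1.42 to −0.75). Erythroid cells held 81.4% of its UMIs in WT and 85.3% in KO, and within them it had 189.7 and 183 CPM. The smaller share of erythroid cells in KO stands beside this value. Bpgm, which makes the oxygen-release regulator of red cells, had 35.9 and 29.7 CPM (−0.28), with 17.9% and 10.1% of its UMIs in erythroid cells, within which it had 123 and 112 CPM (−0.14, −0.61 to 0.32). Pgam2, the muscle mutase, had 40.2 and 31.4 CPM (−0.36, −0.51 to −0.21), and cardiac muscle, 7.29% of WT and 5.71% of KO cells, held 55.9% and 47.0% of its UMIs. Within cardiac muscle Pgam2 had 250.4 and 205 CPM (−0.29, −0.51 to −0.07).

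Of 21 measured other hypoxia response genes 14 passed, 3 of them higher (6.46% of all genes) and 2 lower (15.9%). Mif, a cytokine and abundant transcript, had 2430 and 3076 CPM (0.34, 0.32 to 0.36). Rora (0.40, −0.01 to 0.81) and Stc1 (0.30, −0.02 to 0.62) rested on 94 and 113, and on 154 and 173 UMIs. Gbe1, the glycogen branching enzyme, had 16.1 and 11.5 CPM (−0.49, −0.74 to −0.24) and Insig2, a brake on sterol synthesis, 26.5 and 21.2 CPM (−0.32). All 19 genes of pyruvate dehydrogenase and the citrate cycle passed, 15 of them below 0 (60.8% of all genes) with a median of −0.13, 0 higher and 2 lower by 1.2-fold, a share of lower genes no larger than that of all genes. These were Pdhb, the beta subunit of pyruvate dehydrogenase (188 and 139 CPM, −0.43, −0.50 to −0.36), and Dlat, its acetyltransferase (60.4 and 49.3 CPM, −0.29). In immediate early and heat shock genes, which move when tissue is dissociated, 6 of the 8 that passed lay below 0 (median −0.17), and Jund was the one past 1.2-fold (87.0 and 66.5 CPM, −0.39). The summed list had a log2 ratio of −0.06, but Hspa8 gave 80.2% of its UMIs in WT, and without Hspa8 the ratio was −0.13 (−0.16 to −0.09). The part of dissociation in the values above was not tested.

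Genes with the pattern most like that of the glycolysis sum over the 24 combinations of class and library, among 6300 genes with at least 1000 UMIs, were Gm2a, Vegfb, Dag1, Aif1l and Akirin2 (Pearson r of log2(CPM + 1) from 0.87 to 0.81). For the hypoxia response sum they were Dstn, Pkp2, Fam162a, Cox5a and Cryab (0.85 to 0.78). The 24 points share 2 libraries and differ in depth, so these values are a description.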

How the data were processed

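Single cells of the dissected region were captured in droplets, with 1 library per genotype and MULTI-Seq sample tags. The deposited values are square roots of UMI counts divided by the cell total and multiplied by 1641, with cells in rows and genes in columns. The authors used Cell Ranger 1.3.1 and Scanpy, with build mm10 in the submitters' processing notes, kept genes found in at least 3 cells and cells of 200 to 6000 UMIs, and removed doublets and mitochondrial and ribosomal transcripts. UMIs were recovered by squaring each value and dividing by the smallest square above 0 in its cell (100% whole within 0.01). No further cells were removed and no doublet caller was run.

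Members and lists were chosen with earlier results of these data known. Levels were summed CPM (UMIs per 1000000) over each library or class. With 1 library per genotype there is no test, and exact Poisson, exact conditional and Clopper-Pearson intervals at 95% cover counting error only. Calls are folds of at least 1.2 over all cells (at least 200 UMIs over both libraries) and at least 1.5 in both libraries between classes (at least 50 UMIs in the gated cells of each library). KO over WT within a class needed 100 UMIs of the gene over both libraries. A cell entered the class with the largest share of its markers above 3 times their mean level, with at least 3 markers and no tie. The 3 times limit was set after the data were seen, because a gate on any UMI put 3268 WT and 3028 KO cells in cardiac muscle. Shares of cells were compared after thinning to 1000 UMIs, leaving aside the 1361 WT cells and the 125 KO cells that were shallower. All 35 members are named with values. Other genes of the lists are named where past 1.2-fold (at most 6 per list; the HIF subunit genes Hif1a, Arnt and Epas1 were added after their values were seen), as are the 5 genes of at least 1000 UMIs most correlated with each sum. Calculations used Python 3.11.15, NumPy 2.4.6, SciPy 1.17.1 and matplotlib 3.10.9. Only the intervals of the ratios and the 1.2-fold calls were tested on simulated data, which were Poisson counts. Other scalings, depths, gates and gene sets were tried, of which the cells of 1000 to 2000 UMIs, the omission of erythroid cells and the other marker levels were chosen after seeing the data.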

Additional observations from a re-analysis of the deposited data

Results flagged for a closer look

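Ldha, the muscle-type lactate dehydrogenase, stood at 0.01 on the log2 scale (KO over WT) over all cells but went in opposite directions between classes, with intervals on either side of 0. It was 0.346 in surface ectoderm cells (1256 CPM in WT and 1596 CPM in KO), -0.124 in cardiac muscle cells (2721 and 2497 CPM) and -0.0765 in neural progenitor cells (2157 and 2045 CPM). Of 12 classes, 6 were above 0 and 6 below. These values are without TMM or median of ratios scaling, which raise each log2 ratio. The values in cardiac muscle and neural progenitors would then move toward 0. Over all cells Ldha stood at 0.07 (0.05 to 0.09) with TMM. The difference between classes was not tested, since there was 1 library per genotype.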

How the results depend on the processing

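No paired analysis was possible because each genotype had 1 library, and for the same reason no replicate could be left out. The intervals hold counting error only, so the results are limited to these 2 libraries, and members under 200 UMIs and classes under 100 cells are imprecise. The log2 ratio of the member sum (−0.14) was −0.079 with TMM scaling, −0.073 with the median of ratios, −0.13 as a mean over cells, −0.19 with KO classes weighted by WT shares, −0.11 thinned to 1000 UMIs, −0.046 without the 3 members with most UMIs, −0.061 as the median of the genes' ratios, −0.094 in cells of 1000 to 2000 UMIs and −0.15 without erythroid cells. The glycolysis sum (−0.16) was −0.10 with both scalings, −0.15 as a mean over cells, −0.22 weighted, −0.14 thinned, −0.11 in cells of 1000 to 2000 UMIs and −0.17 without erythroid cells. The hypoxia response sum (0.09) was 0.15 with both scalings and 0.12 weighted, and its sign turned as the median of its genes (−0.023), which gives Higd1a and Bnip3l no extra weight. Members higher in KO numbered 0 at 1.5-fold (0.371% of all genes), 1 weighted (8.92%) and 1 in cells of 1000 to 2000 UMIs (8.61%), against 3 (6.46%), and members lower numbered 0 (2.02%), 8 (19.4%) and 4 (26.7%), against 5 (15.9%). Slc2a3 turned to −0.25 in cells of 1000 to 2000 UMIs and Ddit4 to −0.0045 weighted, and the cause was not tested. All weighted values cover gated cells only, which were 34.0% of WT and 30.4% of KO cells. For cardiac muscle over other gated cells (0.61 in WT and 0.48 in KO), the member sum gave 0.48 and 0.36 with 2 markers, 0.73 and 0.59 with 4, 0.66 and 0.54 gated on thinned cells, 0.64 and 0.51 without the top 3 members, 0.31 and 0.26 with any UMI of a marker, and 0.68 and 0.56 at 5 times its mean level. For erythroid cells (−0.62 and −0.57) it gave −0.57 in WT with 2 markers, −0.69 in WT with 4, −0.73 and −0.67 gated on thinned cells, and −0.59 in WT without the top 3. Surface ectoderm was the highest class in KO without the top 3 members and with any UMI of a marker. KO over WT turned to 0.0047 in pharyngeal and splanchnic mesoderm gated on thinned cells, and to 0.055 in surface ectoderm without the top 3, so that 11 of 12 classes were lower in each. The classes with an interval below 0 numbered 3 without the top 3 members, 8 gated on thinned cells, 9 with 4 markers and 11 with any UMI of a marker, against 12.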
